A study of Mus musculus with 8 samples.

Results

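ABC transporters are membrane pumps that share an ATP-binding cassette, and mouse genes for them are named Abca to Abcg by subfamily. The genes described here are all rows of the deposited count table whose symbol begins with Abc, a subfamily letter from a to g and a digit. There are 50 of them among the 24537 genes of the table. The RNA came from EpCAM-positive cells, sorted out of pancreatic tumours in mice carrying the alleles KrasLSL-G12D, Tp53f/f, Rosa26LSL-Luc and Pdx1-Cre, on the FVB/NJ strain. The 4 anti-LIF tumours (KPCL-PCC_227_GA first, then KPCL-PCC_310_GA, next KPCL-PCC_354_GA, lastly KPCL-PCC_391_GA) came from mice given gemcitabine plus an antibody against the cytokine LIF, and the 4 IgG tumours (KPCL-PCC_203_G first, then KPCL-PCC_343_G, next KPCL-PCC_345_G, lastly KPCL-PCC_393_G) from mice given gemcitabine plus control IgG, with 1 library per mouse. Treatment began at 42 to 43 days of age, and collection was at about 48 days. Gemcitabine, a nucleoside analogue used in chemotherapy, was dosed at 50 mg/kg on days 1 and 4, each antibody at 25 mg/kg on days 1, 3 and 5, and tumours were taken on day 6. Both arms therefore carry gemcitabine and the same alleles, no arm without gemcitabine is analysed here, and Cre is driven by the Pdx1 promoter, which is active in the pancreatic lineage and also in epithelium of the duodenum and distal stomach.

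ABC proteins use ATP to move substrates across membranes. P-glycoprotein, the multidrug resistance proteins of subfamily C and the Abcg2 protein expel drugs and their conjugates and are studied in pancreatic cancer for their part in resistance to chemotherapy. Subfamily A, most of subfamily D and much of subfamily G move lipids, among them cholesterol, phospholipids, sterols and the long-chain fatty acids that peroxisomes break down. Subfamilies E and F have the cassette but no membrane span, and act at ribosomes.

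By known role, the 50 genes were sorted into 9 drug efflux genes, 20 lipid transporter genes, 6 genes of mitochondria and other organelles, 2 channel regulators, 4 ribosome-associated genes, 1 bile salt exporter and 8 genes left unclassified. With anti-LIF, 4 of the 39 tested ABC genes rose (among them Abca1, Abca9 and Abcg3) and 6 fell (Abca6, Abcb1a, Abcc4, Abcc5, Abcd3 and Abcg1). That is 25.6% of them, against 32.2% of all 14711 tested genes (15.7% rose and 16.5% fell), so the family as a whole was called no more often than other genes. Drug efflux genes had 3 of 9 down and none up, while lipid transporters had 3 of 17 up and 3 of 17 down. The other 11 tested lipid genes passed in neither direction. Calls are from edgeR's quasi-likelihood test with the Benjamini-Hochberg adjustment over all tested genes and a threshold of 0.05, and log2 fold changes are anti-LIF over IgG with their standard error (SE). CPM is a read count scaled to library size with TMM factors, which align the bulk of genes between libraries. Differences are therefore relative to that bulk, and all tested genes had a median log2 fold change of −0.0063. In CPM, the arms did not overlap in 6 tested ABC genes upward and 6 downward, of 39. Among all tested genes this held for 35.7% (17.6% upward and 18.2% downward), so arms without overlap are common in these data.

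The promoters below are shown because the results turn on these genes: Abca1 is the most abundant member, Abcb1a and Abcb1b are neighbouring copies of which Abcb1a passed the test, and Abca9 and Abca5 lie in a row of related genes in which Abca9 rose and Abca6 fell. Each covers 250 bases before to 50 after a start site in RefSeq (GRCm38.p6), read 5′ to 3′ on the gene's strand. Of the 50 genes, 38 have a promoter in the RefSeq table used, and Abca6 and Abcg1 are not among them. Capitals mark matches, on either strand, to 7 promoter motifs, each spelled out after the sequences. Matches can overlap each other.
Abca1 (minus strand, chr4:53159846-53160145): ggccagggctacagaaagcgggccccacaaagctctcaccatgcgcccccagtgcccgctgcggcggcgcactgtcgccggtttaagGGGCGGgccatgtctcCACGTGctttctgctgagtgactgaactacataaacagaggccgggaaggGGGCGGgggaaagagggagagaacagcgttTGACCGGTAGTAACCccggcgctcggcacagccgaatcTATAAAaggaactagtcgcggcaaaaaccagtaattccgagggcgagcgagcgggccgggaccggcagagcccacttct
Abcb1a (plus strand, chr5:8566841-8567140): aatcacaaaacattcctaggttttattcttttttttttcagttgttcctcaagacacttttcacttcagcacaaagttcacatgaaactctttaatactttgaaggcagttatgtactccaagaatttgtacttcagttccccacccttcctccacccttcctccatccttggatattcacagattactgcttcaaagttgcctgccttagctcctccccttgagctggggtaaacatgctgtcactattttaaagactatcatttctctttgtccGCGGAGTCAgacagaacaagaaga
Abcb1b (plus strand, chr5:8797897-8798196): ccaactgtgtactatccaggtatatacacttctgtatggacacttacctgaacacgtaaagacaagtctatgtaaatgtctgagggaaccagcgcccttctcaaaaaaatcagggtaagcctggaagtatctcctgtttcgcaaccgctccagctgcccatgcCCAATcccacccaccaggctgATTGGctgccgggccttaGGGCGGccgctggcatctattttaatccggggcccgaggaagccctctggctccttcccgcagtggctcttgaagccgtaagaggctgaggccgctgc
Abca9 (minus strand, chr11:110168104-110168403): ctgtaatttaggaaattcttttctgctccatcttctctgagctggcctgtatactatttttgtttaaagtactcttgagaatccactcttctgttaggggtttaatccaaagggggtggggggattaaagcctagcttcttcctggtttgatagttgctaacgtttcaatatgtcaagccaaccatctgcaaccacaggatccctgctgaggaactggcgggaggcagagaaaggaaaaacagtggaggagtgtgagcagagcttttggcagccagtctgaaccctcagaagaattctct
Abca5 (minus strand, chr11:110337667-110337966): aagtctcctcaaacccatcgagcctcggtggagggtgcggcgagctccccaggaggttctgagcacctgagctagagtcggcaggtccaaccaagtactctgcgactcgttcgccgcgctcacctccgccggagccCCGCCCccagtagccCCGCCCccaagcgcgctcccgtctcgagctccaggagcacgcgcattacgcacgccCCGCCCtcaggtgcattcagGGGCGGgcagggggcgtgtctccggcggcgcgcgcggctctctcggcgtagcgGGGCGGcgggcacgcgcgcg

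DR4 is the direct repeat bound by the sterol-sensing LXR receptors, searched as a pair of GGTNA cores 5 bases apart. It begins at position −67 of Abca1 (the start base is 0) and occurs in 0.718% of the 32851 promoters searched. Abca1 is a textbook LXR target, but a part of LXR in its rise was not tested. For Abcg1, the cholesterol exporter that fell, no promoter was available to search. The Abca1 window also holds a TATA box (TATAAA, found in 13.6% of promoters) at −29. GC boxes (GGGCGG, 35.7% of promoters) begin at −163 and −97 of Abca1, and an E-box (CACGTG, 7.15% of promoters) at −147. The neighbouring Abcb1 copies do not look alike. Abcb1b has CCAAT boxes (spelled as named, 37.4% of promoters) at −87 and −66 and a GC box at −48. The Abcb1a window has as its only match an antioxidant response element core (TGACNNNGC, 12.4% of promoters), at 26. The single nuclear receptor core (AGGTCA, 16.3% of promoters) was found in none of the 5 windows. The counted Abcb1a transcript begins 93001 bases from the start site shown, so reads need not come from this promoter. Abca5 has 5 GC boxes between −114 and 30, and Abca9 has no match to the 7 motifs.

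The 50 genes spanned a wide range of levels. Abca16 had 0 counts of 135488436 in all libraries, which allows up to 0.0221 CPM (3 counts over all libraries, counting error only). Another 10 were not tested, since too few libraries passed the count filter's cutoff of 0.589 CPM: Abca12, Abca14, Abca15, Abca17, Abcb5, Abcb11 (the bile salt exporter), Abcc6, Abcc12, Abcg4 and Abcg8, with 1 to 170 counts over the 8 libraries. Of the 39 tested genes, 32 passed that cutoff in every library. The other 7 (Abca4, Abca8a, Abca8b, Abca13, Abcb4, Abcc2 and Abcg5) passed in part of them, in Abcb4 in 3 anti-LIF libraries and 1 IgG library, and are not among the genes called. Per kilobase of transcript, Abca1 had the highest mean over all libraries, at 51.9 FPKM with anti-LIF and 31.7 FPKM with IgG. Next by the mean over all 8 libraries were Abca3, which loads lipid into lamellar bodies in lung, at 33.2 FPKM with anti-LIF and 30.7 FPKM with IgG, and Abca9, at 44.7 FPKM with anti-LIF and 16.7 FPKM with IgG. Abcc3 was the highest drug efflux gene, at 21.4 FPKM with anti-LIF and 23.9 FPKM with IgG. Abcb1a, Abcb1b and Abcg2, the genes most often linked to multidrug resistance, were far lower, with arm means of 1.75 to 5.71 FPKM.

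**Figure D1:**
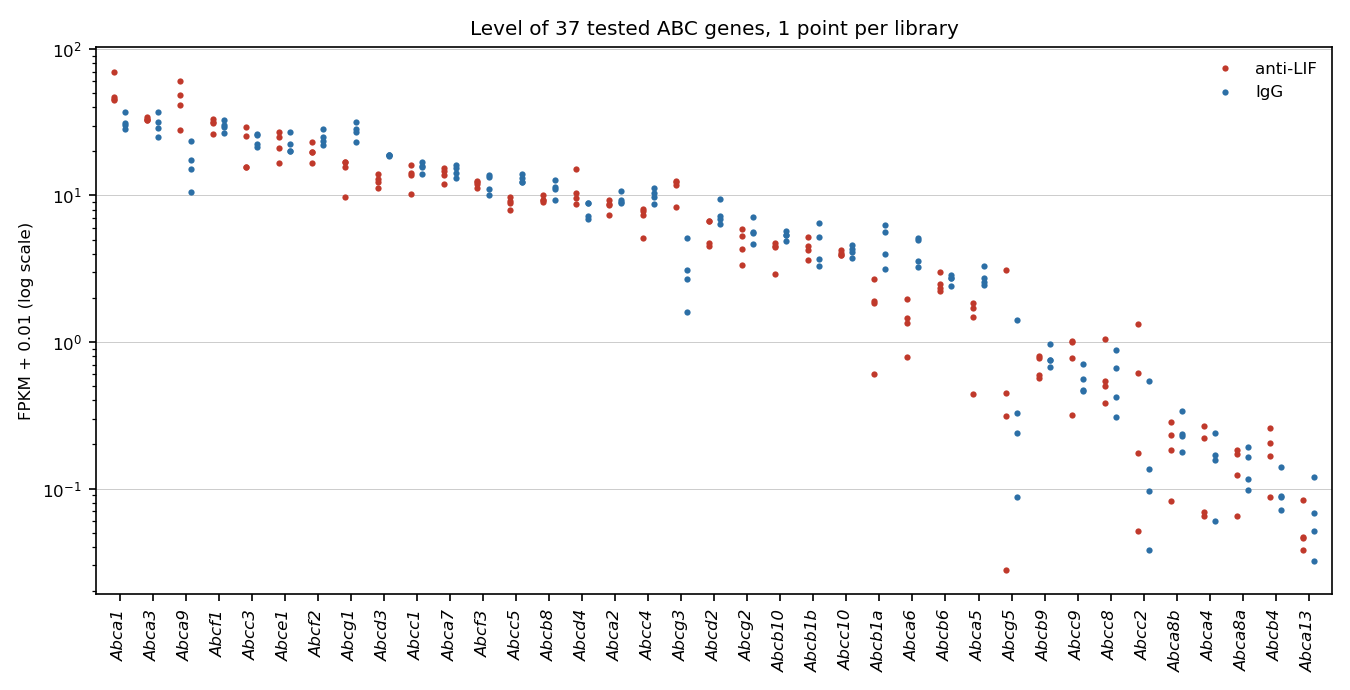
Level (FPKM plus 0.01, log scale) of 37 of the 39 tested ABC genes in each library, ordered by mean level, with anti-LIF libraries in red left of IgG libraries in blue. Among the called genes shown, Abca1, Abca9 and Abcg3 lie higher in anti-LIF libraries and Abcg1, Abcd3, Abcc5, Abcc4, Abcb1a and Abca6 lower. FPKM are scaled without TMM, and on this scale the arms of Abcc5 do not overlap, unlike in CPM. Below 1 FPKM the libraries of an arm scatter widely.

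The sort marker Epcam was at 305 ± 74.8 CPM with anti-LIF and 575 ± 76.8 CPM with IgG (SD, n = 4 each; log2 fold change −0.91, edgeR adjusted p = 0.0102). Counts in genes ran from 15135457 to 18972281 per library. All 20 listed epithelial markers were detected and 16 fell; the list took 0.206% to 0.408% of counts with anti-LIF and 0.656% to 0.795% with IgG. Of 18 macrophage and monocyte markers, all detected, 15 rose; they took 2.68% to 4.62% of counts with anti-LIF and 1.30% to 1.80% with IgG. Acinar markers (13 of 14 tested genes rose, Amy2a5 was at 0) took 0.321% to 1.77% with anti-LIF and 0.0378% to 0.221% with IgG. Fibroblast markers took 0.0249% to 0.0982% with anti-LIF and 0.0244% to 0.0907% with IgG, and islet markers 0.00532% to 0.0217% with anti-LIF and 0.00457% to 0.0249% with IgG. T and NK cell markers (2 of 5 tested genes rose, Ncr1 was at 0) took 0.00254% to 0.00341% with anti-LIF and 0.000702% to 0.00179% with IgG. The epithelial, macrophage, acinar and T and NK cell shares do not overlap between arms, and their part in the ABC results was not tested. In bulk RNA, fewer cells of a type and less RNA per cell cannot be told apart. Anti-LIF library KPCL-PCC_227_GA has the lowest epithelial share and the highest macrophage share of all 8.

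All 9 genes sorted as drug efflux were detected, and 3 passed the test, all downward. That is 33.3% of the 9, against 32.2% of all tested genes called in either direction and 16.5% called downward. The related genes Abcc6, Abcc12 and Abcb5 were left unclassified, with 45, 12 and 1 counts over all libraries. Full detection of the drug efflux genes therefore depends on the sorting. Abcb1a (chromosome 5, 8660092 to 8748570, mm10) encodes a mouse P-glycoprotein, which expels many hydrophobic drugs. It stood at 4.28, 16.8, 11.6 and 12.02 CPM in the anti-LIF libraries, in the order named above, against 35.6, 24.3, 19.4 and 32.6 CPM in the IgG libraries, likewise in order. Every anti-LIF library was below every IgG library, and library KPCL-PCC_227_GA was the lowest. Abcb1a fell 2.50-fold (log2 fold change −1.32 ± 0.37 SE, edgeR adjusted p = 0.0253). Abcb1b (chromosome 5, 8798147 to 8866314) encodes the other mouse P-glycoprotein and lies next to it on the same strand. It had 26.6, 28.2, 19.9 and 25.0 CPM with anti-LIF and 26.0, 19.6, 17.7 and 33.0 CPM with IgG, so the arms overlap fully. Its log2 fold change was 0.051, with a 95% interval of −0.41 to 0.51 (edgeR adjusted p = 0.867). The ratio of Abcb1a to Abcb1b in FPKM was 0.140 to 0.521 in anti-LIF libraries and 0.863 to 1.20 in IgG libraries. This ratio is taken within a library, so no scaling changes it, and it is given as a description because the pair was chosen after its values were seen. Of stretches of 50 bases in the transcripts, 15.5% of those in Abcb1a also occur in Abcb1b and 18.0% of those in Abcb1b also occur in Abcb1a, so the division of reads between the copies is uncertain to that extent. Exons of Gm42686, on the opposite strand, overlap 10.1% of the exon bases of Abcb1a, and since the strand setting of the counting is not known, reads of both genes cannot be told apart there.

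Abcc4 and Abcc5, multidrug resistance proteins that carry cyclic nucleotides and nucleotide analogues, fell by small amounts. Abcc5 (chromosome 16, 20331304 to 20426394) had 82.3, 64.8, 58.6 and 67.6 CPM with anti-LIF and 82.3, 93.8, 89.6 and 94.7 CPM with IgG. All other anti-LIF libraries lie below all IgG libraries, while library KPCL-PCC_227_GA is level with the lowest of them. Its log2 fold change was −0.40 ± 0.11 SE (1.32-fold lower, edgeR adjusted p = 0.0247). Abcc4 (chromosome 14, 118482692 to 118706219) had 41.6, 56.4, 51.7 and 55.5 CPM with anti-LIF and 66.0, 76.3, 66.9 and 57.3 CPM with IgG, without overlap. It fell 1.30-fold (−0.38 ± 0.12 SE, edgeR adjusted p = 0.0442). Each of the 3 falling genes lost its call in some fits that left out 1 library, while its log2 fold change stayed negative. Fewer of all tested genes passed in such fits too, with 1502 to 2146 down against 2428 with all libraries. Without anti-LIF library KPCL-PCC_354_GA none of the 9 drug efflux genes passed edgeR's test (3 at an unadjusted p under 0.05), although Abcb1a was still at −1.34, Abcc4 at −0.38 and Abcc5 at −0.33. Abcb1a also missed the threshold without IgG library KPCL-PCC_203_G (−1.19) or KPCL-PCC_393_G (−1.24). Abcc4 missed it without anti-LIF library KPCL-PCC_227_GA (−0.29) or KPCL-PCC_391_GA (−0.42) or IgG library KPCL-PCC_203_G (−0.38), KPCL-PCC_343_G (−0.30) or KPCL-PCC_345_G (−0.37). Abcc5 missed it without anti-LIF library KPCL-PCC_310_GA (−0.37) or KPCL-PCC_391_GA (−0.39) or IgG library KPCL-PCC_343_G (−0.38), KPCL-PCC_345_G (−0.40) or KPCL-PCC_393_G (−0.37).

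The other drug efflux genes passed the test in neither direction. None of the 9 rose (0 at an unadjusted p under 0.05 in edgeR, and 0 called by DESeq2). Of all tested genes 15.7% rose, so 0 of 9 does not set so small a group apart. Abcc3, an exporter of conjugated organic anions, had 113, 184, 98.1 and 162 CPM with anti-LIF and 122, 138, 162 and 151 CPM with IgG (log2 fold change −0.042, 95% interval −0.49 to 0.41). Abcc1, which exports glutathione conjugates, had 88.1, 121, 104 and 107 CPM with anti-LIF and 108, 114, 103 and 118 CPM with IgG (−0.079, −0.31 to 0.15). For both genes the libraries of the arms are interleaved. Abcc10, a relative of Abcc1, had 28.5, 24.2, 24.1 and 26.3 CPM with anti-LIF and 25.7, 25.9, 25.1 and 21.5 CPM with IgG (0.068, −0.16 to 0.29). Abcg2, the breast cancer resistance protein, had 12.1, 18.4, 13.5 and 16.9 CPM with anti-LIF and 15.8, 14.2, 17.3 and 20.6 CPM with IgG (−0.16, −0.54 to 0.23). Abcc1 and Abcc10 have the narrowest intervals of the 9. Abcc2, the canalicular exporter of bilirubin conjugates, was low and uneven, with 0.319, 8.95, 4.14 and 1.14 CPM with anti-LIF and 0.172, 0.824, 3.55 and 0.540 CPM with IgG, and its interval of −0.83 to 3.82 covers falls and large rises alike.

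The cholesterol exporters Abca1 and Abcg1 moved in opposite directions. Abca1 (chromosome 4, 53030789 to 53159895), which hands cholesterol and phospholipid to lipid-poor apolipoproteins, had 1033, 582, 593 and 618 CPM in anti-LIF libraries and 438, 358, 397 and 361 CPM in IgG libraries. All anti-LIF libraries lie above all IgG libraries, and library KPCL-PCC_227_GA stands above the other anti-LIF libraries. Abca1 rose 1.82-fold (0.86 ± 0.20 SE, edgeR adjusted p = 0.0126), and without library KPCL-PCC_227_GA the log2 fold change was 0.62. Abcg1 (chromosome 17, 31057694 to 31117981), which moves cholesterol towards lipid-rich particles, had 82.8, 115, 125 and 125 CPM with anti-LIF and 154, 228, 206 and 185 CPM with IgG. The arms do not overlap in Abcg1 either, but in the opposite direction. Abcg1 fell 1.72-fold (−0.79 ± 0.16 SE, edgeR adjusted p = 0.00913). The within-library ratio of Abca1 to Abcg1 in FPKM was 7.10, 2.87, 2.69 and 2.80 with anti-LIF and 1.61, 0.892, 1.09 and 1.11 with IgG. The ratio was higher in every anti-LIF library than in any IgG library, and in IgG library KPCL-PCC_343_G Abca1 was below Abcg1. Each gene alone separates the arms, in opposite directions, so the ratio had to separate them too and is given as a description. Sterol exporters Abcg5 and Abcg8, which work as a dimer in gut and liver, were low and uneven, with arm means of 0.241 to 0.966 FPKM.

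In the same libraries, 4 of 23 listed genes of the LXR pathway and cholesterol efflux rose and 1 fell (median log2 fold change 0.010, against −0.0063 for all tested genes), while 15.7% of all tested genes rose and 16.5% fell, so the list was called no more often than other genes. Pltp, a phospholipid transfer protein, was at 474 ± 245 CPM with anti-LIF and 95.6 ± 23.0 CPM with IgG (2.31, edgeR adjusted p = 0.00469). Cyp27a1, which makes an oxysterol that activates LXR, was at 79.7 ± 21.9 CPM with anti-LIF and 39.2 ± 5.28 CPM with IgG (1.02, edgeR adjusted p = 0.00721). The gene that fell was Scd2, a fatty acid desaturase, at 243 ± 71.5 CPM with anti-LIF and 462 ± 45.9 CPM with IgG (−0.93, edgeR adjusted p = 0.0139).

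A row of 5 related subfamily A genes on chromosome 11 held 1 that rose and 1 that fell. Among all tested genes 32.2% were called and 35.7% had arms without overlap, so such counts do not set the row apart. In map order the row is Abca8b, Abca8a, Abca9, Abca6 and Abca5, all on the minus strand. These genes are counted as lipid transporters by their subfamily, and their substrates are less well known than those of Abca1. Abca9 (110100822 to 110168153) had 549, 220, 386 and 330 CPM with anti-LIF and 169, 81.0, 136 and 110 CPM with IgG, with no overlap. It rose 2.99-fold (1.58 ± 0.30 SE, edgeR adjusted p = 0.00705), and without library KPCL-PCC_227_GA the value was 1.33. Abca6 (110176821 to 110251776), the next gene, had 10.2, 5.14, 9.58 and 13.0 CPM with anti-LIF and 29.9, 22.7, 33.0 and 19.8 CPM with IgG. It fell 2.78-fold (−1.47 ± 0.28 SE, edgeR adjusted p = 0.00671), again with no overlap. Abca5 (110269369 to 110337716), after it, had 5.17, 19.0, 17.8 and 15.6 CPM with anti-LIF and 24.4, 27.8, 25.0 and 31.8 CPM with IgG. Its arms do not overlap, but it missed edgeR's threshold with all libraries (−0.92 ± 0.34 SE, edgeR adjusted p = 0.0644); without library KPCL-PCC_227_GA, its lowest, it passed at −0.64 (adjusted p = 0.0103). With all libraries Abca5 was called by DESeq2 (−0.91, adjusted p = 0.0255) and by limma on log2(FPKM + 1) (−0.71, adjusted p = 0.0297). It was not called by limma on log2(FPKM + 0.1), with RLE or library-size scaling, or with other count filters. Nor was it called in any other fit that left out 1 library. Abca8a and Abca8b were at 0.447 to 2.38 CPM over the 8 libraries and were not called. The FPKM ratio of Abca9 to Abca6 was 45.1, 35.7, 33.6 and 21.2 with anti-LIF and 4.71, 2.98, 3.45 and 4.66 with IgG. Because Abca9 and Abca6 each separate the arms, in opposite directions, their ratio had to as well and is given as a description. Only 0.205% of stretches of 50 bases in Abca9 occur in another gene's transcript, so reads of the 2 neighbours are rarely confusable.

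**Figure D2:**
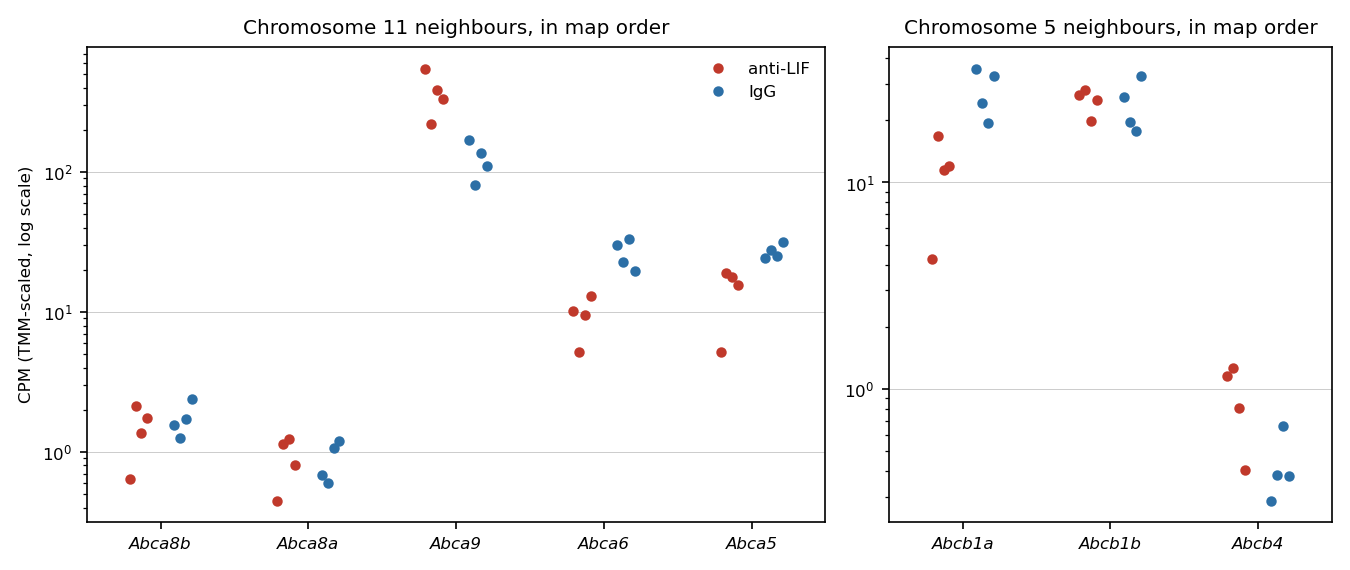
CPM (TMM-scaled, log scale) of the chromosome 11 and chromosome 5 neighbours in map order, 1 point per library, anti-LIF in red left of IgG in blue; CPM is not corrected for length, so arms are to be compared within a gene. Abca9 is higher with anti-LIF while Abca6 beside it is lower, and Abcb1a is lower with anti-LIF while the arms of Abcb1b overlap.

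Peroxisomal importers of subfamily D supply fatty acids for oxidation. Abcd3 (chromosome 3, 121758910 to 121815215), which imports branched-chain and other long fatty acyl-CoA, had 55.2, 59.8, 53.2 and 55.5 CPM with anti-LIF and 73.5, 77.3, 80.1 and 74.5 CPM with IgG. Libraries of each arm lie close together and apart from the other arm's. Abcd3 fell 1.37-fold (−0.45 ± 0.069 SE, edgeR adjusted p = 0.00440), with the smallest SE of any tested ABC gene. Abcd2, another peroxisomal fatty acyl-CoA importer, had 53.8, 33.3, 31.6 and 47.0 CPM with anti-LIF and 44.1, 64.5, 49.9 and 41.8 CPM with IgG, interleaved (−0.27 ± 0.20 SE, edgeR adjusted p = 0.324). Of 17 listed genes of peroxisomal fatty acid oxidation, 4 rose and 1 fell, and with 32.2% of all tested genes called this count is no more than the background. The gene that fell, Eci2, an enoyl-CoA isomerase, was at 38.4 ± 3.08 CPM with anti-LIF and 60.4 ± 6.16 CPM with IgG (−0.65, edgeR adjusted p = 0.00420). Acaa1a, a peroxisomal thiolase, was at 59.5 ± 6.28 CPM with anti-LIF and 40.2 ± 2.10 CPM with IgG (0.57, edgeR adjusted p = 0.00485), and Cat, catalase, at 149 ± 7.48 CPM with anti-LIF and 113 ± 11.3 CPM with IgG (0.41, edgeR adjusted p = 0.0108).

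**Figure D3:**
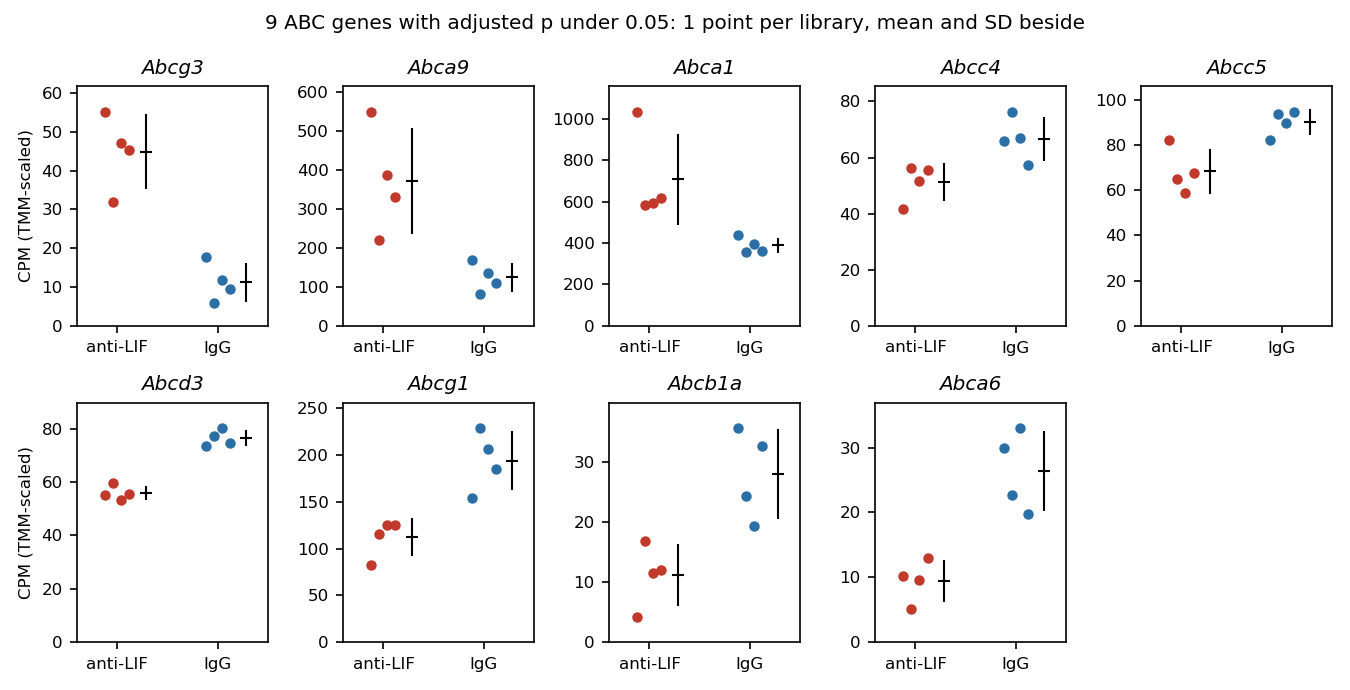
CPM (TMM-scaled) in each library of 9 of the 10 ABC genes that passed the threshold, with mean and SD (n = 4) beside the points; anti-LIF is left of IgG. The arms do not overlap in 8 of the genes shown and touch in Abcc5. These genes were picked by a test on the same counts, so separated arms follow largely from that choice. Of all 39 tested ABC genes, 6 had arms without overlap upward and 6 downward, against 35.7% of all tested genes in either direction. Library KPCL-PCC_227_GA is the highest anti-LIF point of Abca1, Abca9 and Abcg3.

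Abcg3 (chromosome 5, 104935057 to 104982717), a subfamily G gene without an established substrate, had 55.2, 32.0, 47.0 and 45.3 CPM with anti-LIF and 17.8, 5.93, 11.7 and 9.57 CPM with IgG. It rose 3.99-fold (1.997 ± 0.31 SE, edgeR adjusted p = 0.00444), the largest rise among the 10 called genes, and the lowest anti-LIF library was above the highest IgG library. Abca1, Abca9 and Abcg3 rose in libraries whose macrophage share was 2.68% to 4.62% with anti-LIF and 1.30% to 1.80% with IgG. On the scale of the macrophage list, all genes had a median of −1.19. Abcg3 still passed upward there (0.81), Abca9 did not pass (0.33), and Abca1 (−0.40) turned negative. Relative to that median, Abca1 was at 0.79, Abca9 at 1.52 and Abcg3 at 1.995, close to their values with TMM. On the scale of the epithelial list, all genes had a median of 1.05. Abcb1a (−0.36) and Abca6 (−0.42) did not pass, and Abcg1 (0.22), Abcd3 (0.60), Abcc4 (0.65) and Abcc5 (0.68) turned positive. Relative to that median these genes stayed negative, from −1.47 (Abca6) to −0.37 (Abcc5). Each scale shifts genes together, so passing or changing sign there cannot show which genes follow the cell shares. The part of those shares was not tested.

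Other lipid transporters of subfamily A differed little. Abca3 had arm means of 280 ± 25.8 CPM with anti-LIF and 235 ± 32.2 CPM with IgG (0.25, edgeR adjusted p = 0.127). Abca7, which moves phospholipid in phagocytes and brain, was at 119 ± 6.13 CPM with anti-LIF and 116 ± 6.64 CPM with IgG, with a 95% interval of −0.12 to 0.21. Abca2, an endolysosomal protein of lipid-rich cells, was at 89.4 ± 3.51 CPM with anti-LIF and 91.5 ± 10.4 CPM with IgG, with an interval of −0.24 to 0.17. Abca4, the retinoid transporter of photoreceptors, and Abca13 were at 0.439 to 2.35 CPM over the 8 libraries. Abcb4, the phosphatidylcholine floppase of bile canaliculi, was at 0.906 ± 0.389 CPM with anti-LIF and 0.427 ± 0.161 CPM with IgG (1.06, edgeR adjusted p = 0.0808).

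Set side by side, drug efflux genes had a median log2 fold change of −0.079 over 9 tested genes (range −1.32 to 1.495) and lipid transporters 0.029 over 17 (range −1.47 to 1.58), against −0.0063 for all tested genes. Summed FPKM of drug efflux genes was 53.1, 81.3, 59.0 and 72.6 with anti-LIF and 81.5, 79.4, 78.9 and 88.4 with IgG. Library KPCL-PCC_310_GA lies among the IgG libraries and the other anti-LIF libraries lie below them. Summed FPKM of lipid transporters was 244, 197, 218 and 210 with anti-LIF and 201, 180, 183 and 179 with IgG, and library KPCL-PCC_310_GA is again the one within the IgG range. Of that lipid sum, Abca1 made up 23.7% ± 3.32 with anti-LIF and 17.01% ± 1.10 with IgG, and Abca9 20.3% ± 4.58 with anti-LIF and 8.88% ± 2.42 with IgG (SD, n = 4 each). Abcg1 made up 6.96% ± 1.96 with anti-LIF and 14.95% ± 2.61 with IgG. The groups' sums were chosen with results known and carry no test. Unlike the medians, the sums are scaled to library totals without TMM. With library size alone, all tested genes had a median log2 fold change of −0.16, so the 2 measures are on different scales.

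**Figure D4:**
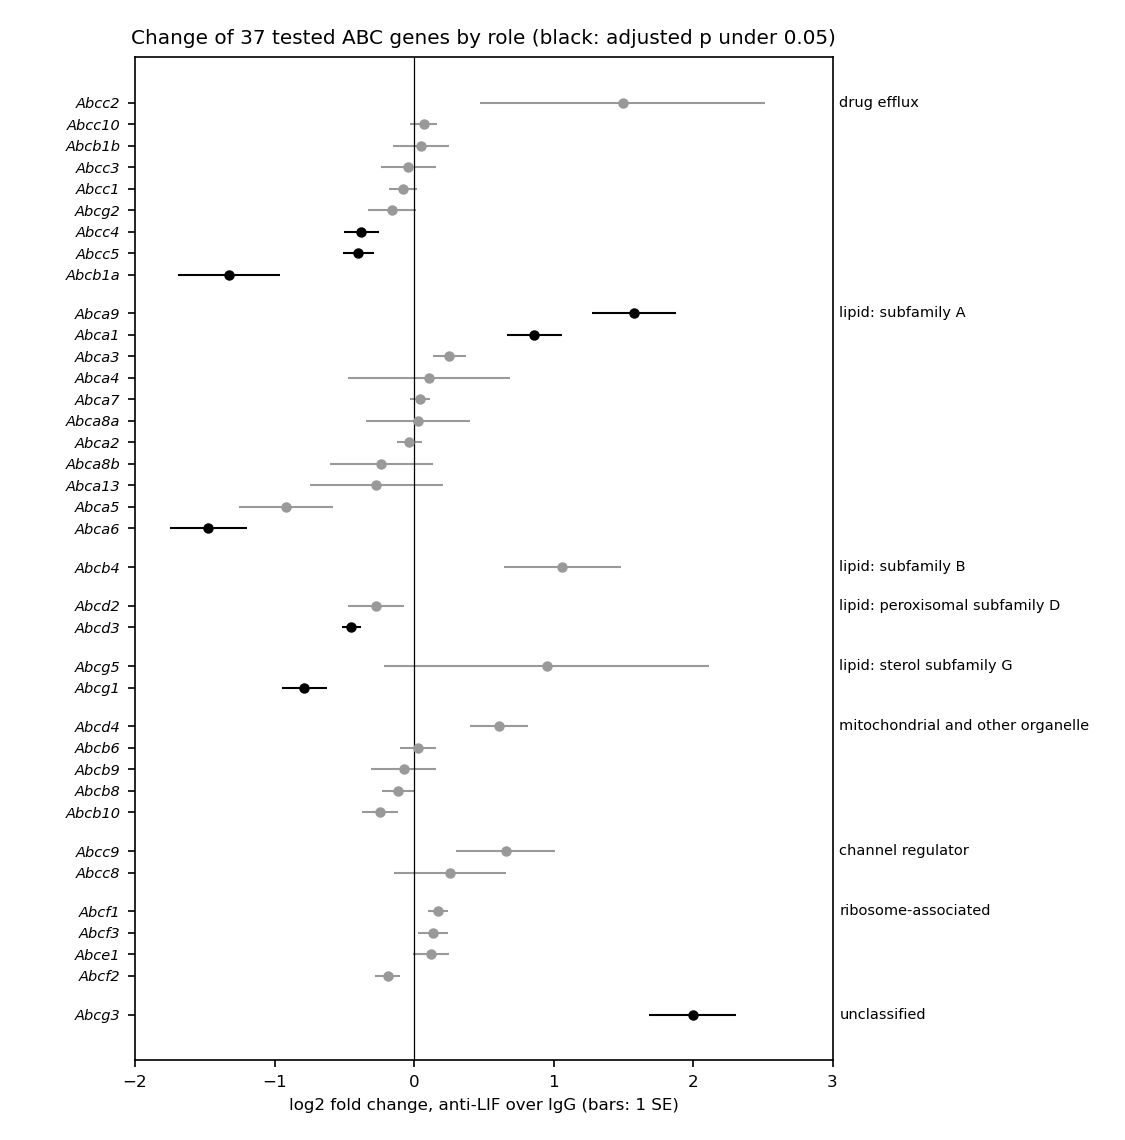
Log2 fold change (anti-LIF over IgG) with 1 SE of 37 of the 39 tested ABC genes, grouped by role, with genes past the threshold in black and others in grey. Drug efflux genes lie at or below 0 except Abcc2, Abcc10 and Abcb1b, while lipid genes reach from −1.47 (Abca6) to 1.58 (Abca9).

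None of the 6 organelle genes was called by edgeR, while 32.2% of all tested genes were. DESeq2 called 1 of the 6, and 1 had an unadjusted edgeR p under 0.05, in both cases Abcd4. Abcd4, which takes part in lysosomal release of cobalamin, had 54.9, 27.8, 32.9 and 30.8 CPM with anti-LIF and 25.6, 21.2, 22.7 and 26.4 CPM with IgG (0.61, edgeR adjusted p = 0.0510). Leaving out KPCL-PCC_227_GA (0.35) or KPCL-PCC_310_GA (0.73), both anti-LIF libraries, brought it past the threshold. Abcb8, Abcb10, Abcb6 and Abcb9 had log2 fold changes between −0.25 and 0.030, and 90.3% of the stretches of 50 bases in Abcb6 also occur in the overlapping gene Gm29253. Of 18 listed iron-sulphur and haem genes, 3 rose and 2 fell, again no more than the 32.2% called among all tested genes. Uros, a haem synthesis enzyme, was at 10.9 ± 1.25 CPM with anti-LIF and 5.06 ± 0.974 CPM with IgG (1.11, edgeR adjusted p = 0.00440). Ppox, another, was at 32.8 ± 3.91 CPM with anti-LIF and 22.4 ± 1.45 CPM with IgG (0.55, edgeR adjusted p = 0.00709). Glrx5, a glutaredoxin of iron-sulphur assembly, was at 25.6 ± 1.99 CPM with anti-LIF and 32.5 ± 0.938 CPM with IgG (−0.34, edgeR adjusted p = 0.0157).

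Abce1, which splits ribosomes after termination, was at 111 ± 17.7 CPM with anti-LIF and 102 ± 11.3 CPM with IgG. None of the 4 ribosome-associated genes was called by edgeR. With 32.2% of all tested genes called, 0 of 4 does not set so small a group apart. DESeq2 called 1, and 1 had an unadjusted edgeR p under 0.05, in both cases Abcf1. Abcf1 was at 125 ± 4.89 CPM with anti-LIF and 112 ± 6.40 CPM with IgG (0.17, edgeR adjusted p = 0.0961). Among 11 listed partners in ribosome recycling and the GCN2 pathway, 1 rose and 0 fell, while 15.7% of all tested genes rose and 16.5% fell. The gene that rose was Mcts1, at 33.4 ± 2.18 CPM with anti-LIF and 25.3 ± 2.38 CPM with IgG (0.40, edgeR adjusted p = 0.0151). Channel regulators were low: Abcc8, the sulphonylurea receptor of beta cells, was at 3.92 ± 1.81 CPM with anti-LIF and 3.28 ± 1.45 CPM with IgG, and Abcc9, its counterpart in mural cells and heart, at 7.48 ± 3.40 CPM with anti-LIF and 4.74 ± 0.868 CPM with IgG. Neither was called, and Abcc9 passed without anti-LIF library KPCL-PCC_354_GA (0.93). Their pore genes were as low, with Kcnj11 at 2.55 ± 0.375 CPM with anti-LIF and 2.32 ± 0.341 CPM with IgG and Kcnj8 at 1.03 ± 0.565 CPM with anti-LIF and 1.31 ± 0.712 CPM with IgG.

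ABC genes that carry other symbols lie outside the rule. Tap1 and Tap2, which pump peptides to MHC class I, both rose: Tap1 was at 49.3 ± 5.86 CPM with anti-LIF and 27.97 ± 5.32 CPM with IgG (0.82, edgeR adjusted p = 0.00580), and Tap2 at 69.1 ± 5.99 CPM with anti-LIF and 42.2 ± 4.65 CPM with IgG (0.71, edgeR adjusted p = 0.00388). Cftr, the chloride and bicarbonate channel of duct cells, was at 69.1 ± 16.7 CPM with anti-LIF and 75.0 ± 15.1 CPM with IgG (−0.12, edgeR adjusted p = 0.680). Xenobiotic sensing and conjugation, which supply substrates to drug efflux pumps, had 3 of 27 listed genes up and 5 down, no more than the 32.2% called among all tested genes. The 3 with the lowest p all fell. Gsto1, a glutathione transferase, was at 111 ± 21.4 CPM with anti-LIF and 206 ± 18.3 CPM with IgG (−0.89, edgeR adjusted p = 0.00458). Nqo1, a quinone reductase, was at 2.04 ± 0.559 CPM with anti-LIF and 4.70 ± 0.911 CPM with IgG (−1.21, edgeR adjusted p = 0.00962). Gss, which makes glutathione, was at 28.6 ± 4.55 CPM with anti-LIF and 41.6 ± 2.59 CPM with IgG (−0.54, edgeR adjusted p = 0.0123).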

How the data were processed

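The authors deposited unnormalised counts for 1 transcript of each gene, and FPKM in a second table, both made with HOMER's analyzeRepeats.pl on mm10 (exons, condensed to genes), per the file headers. Alignment with STAR 2.4.0k and checks with FastQC 0.11.2 are named in the submitters' processing notes; no source used here gives the strand setting. FPKM are scaled to library totals without TMM; 3 genes (Abca3, Abcc4, Abcc10) have another transcript there than in the count table. There are 0 unused columns of single samples. Counts were fitted in R 4.3.3 with edgeR 4.0.16 (filterByExpr, TMM, quasi-likelihood test, Benjamini-Hochberg over 14711 genes); limma 3.58.1 and DESeq2 1.42.0 were alternatives, and the pipeline was tested on simulated data. SE is the log2 fold change over the root of F, and intervals use the t distribution. Library totals were 18954525 to 24681702 reads. P-values weigh the difference between the arms against the spread among tumours within an arm.

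Values in every library are given for 9 of the 10 ABC genes past the threshold and for each tested drug efflux gene, and up to 3 genes of each companion list past it; Abca5, Abcd2 and Abcd4 were added after their values were seen, as were the ratios of gene pairs. The values of 2 ABC genes, of which 1 passed the threshold, are in the counts but not reported here. Members, roles and lists were chosen with earlier results of these data known. Coordinates are as the count table gives them. Overlap of transcripts was read from GENCODE M21.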

Additional observations from a re-analysis of the deposited data

Results flagged for a closer look

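Among the 30 sets of 4 libraries examined (15 ABC genes in each arm), 1 held a library far from its group by Dixon's test, which chance alone marks in about 1 of 20 sets. Abca1 was at 1033 CPM in anti-LIF library KPCL-PCC_227_GA, against 582 to 618 CPM in the other anti-LIF libraries. That library also has the highest macrophage share (4.62% of counts) and the lowest epithelial share (0.206%) of all 8; their part in the value was not tested. Without it Abca1 still passed (log2 fold change 0.62, edgeR adjusted p = 0.00480).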

How the results depend on the processing

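No paired analysis was possible because the arms share no library number. Abca1, Abca6, Abca9, Abcd3, Abcg1 and Abcg3 passed in each fit that left out 1 library, with both FPKM pseudocounts, with DESeq2, with other count filters and with RLE or library-size scaling. Leaving out 1 library gave 3 to 6 ABC genes down, 0 to 2 drug efflux genes down, and 1457 to 2195 genes up and 1502 to 2146 down among all tested; Abcb1b ranged from −0.072 to 0.24 and Abcc3 from −0.20 to 0.094. With library size alone (median of all genes −0.16), 1430 of all genes rose, and Abcb1b (−0.11) and Abcc10 (−0.094) changed sign. On log2(FPKM + 1) Abcb1b was at −0.045 and Abcc10 at −0.052. On log2(FPKM + 0.1) Abcb1b was at −0.047, Abcc10 at −0.062, and 1535 of all genes rose. Scaled to the epithelial list (median 1.05), 31 ABC genes rose and 0 fell, with 8 drug efflux genes up and 0 down, 10 lipid genes up and 0 down, and 11313 of all genes up and 162 down. Medians were then 0.95 for drug efflux and 1.02 for lipid genes, and positive values were reached by Abcc1 (0.95), Abcc3 (0.95), Abcc4 (0.65), Abcc5 (0.68), Abcd3 (0.60), Abcg1 (0.22) and Abcg2 (0.85). Scaled to the macrophage list (median −1.19), 1 ABC gene rose and 29 fell, with 8 drug efflux genes down, 0 lipid genes up and 11 down, and 157 of all genes up and 12253 down. Medians were −1.23 for drug efflux and −1.13 for lipid genes, and Abca1 (−0.40), Abcb1b (−1.15) and Abcc10 (−1.13) turned negative. These shifts follow the median of all genes: relative to it, Abca1 was at 0.95 and 0.79, Abcg1 at −0.82 and −0.74, and Abcb1a at −1.41 and −1.21 on the epithelial and macrophage scales. Abcc4 missed the threshold with no count filter (−0.37, edgeR adjusted p = 0.0515). For the other changes the cause was not tested. Low genes such as Abcc2 and Abcg5 have intervals too wide to read a direction from.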
